A study of Mus musculus with 8 samples.

Results

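The genes that encode collagen chains, laminin chains and the proteins that link them were followed in endothelial cells sorted from 8 subcutaneous B16.F10 melanomas of C57BL/6 mice. The members are all genes in the table of normalized reads with a collagen chain symbol (44 genes) or a laminin chain symbol (11 genes), together with Nid1, Nid2, Hspg2, Agrn and Sparc, which makes 60 of 20057 genes. The rule uses the gene symbol and no measured value. The male mice were 8 weeks old when they received 250000 tumor cells. Antibody was injected beside the tumor 2 times, on day 13 and on day 16, at 30 µg each, and per the labels the mice were sacrificed 1 day after the last, where the methods of the study also name a later day for its sorting experiments. One group of 4 received the agonistic CD40 mAb FGK4.5 and the other group of 4 the rat IgG2a isotype control 2A3. About 100000 live CD45- CD31+ cells were sorted from each tumor, 10 ng of RNA went into each library, and each library comes from 1 tumor. The libraries are called by mouse, with 5N, 6L, 6R and 10N for agonistic CD40 mAb and 5L, 7N, 8N and 9L for isotype control, and values are always given in that order. The comparison asks whether the matrix genes of the sorted cells changed with CD40 stimulation.

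Endothelial cells rest on a basement membrane, a thin sheet in which a network of type IV collagen is joined by nidogens and perlecan to a network of laminins. Type IV collagen of most vessels is built from the products of Col4a1 and Col4a2, and the laminins of vessels carry the α4 or the α5 chain with β and γ chains. Fibrillar collagens, with types I, III and V as the most common, form the fibers of the interstitial matrix and are made mainly by fibroblasts and mural cells. Basement-membrane and fibrillar chains are therefore described apart. In bulk RNA, fewer cells of a type and less RNA per cell cannot be told apart.

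The depth of the libraries ran from 2971689 to 64938728 reads on genes. The 3 with the fewest reads, 5L, 7N and 8N, are all of the isotype control group. Normalized reads, the unit used throughout, are gene counts divided by a size factor per library, and 1 read counts for 0.118 of them in the library with the most reads and for 2.44 in that with the fewest. The 11 endothelial markers, all present, summed to 47820 to 68163 under agonistic CD40 mAb and 41669 to 58348 under isotype control, among them Pecam1, the gene of CD31, at 9915 and Cdh5, the gene of VE-cadherin, at 11521 on average. The sorted material also held RNA of other cells. The 12 fibroblast markers summed to 5831 to 12875 normalized reads under agonistic CD40 mAb and to 3903 to 13425 under isotype control, and the 13 mural markers to 18785 to 32366 and 14108 to 44829. The 10 melanoma markers summed to 47853 to 76742 under agonistic CD40 mAb and to 48792 to 122820 under isotype control. The 16 leukocyte markers summed to 1798 to 2019 and 1361 to 2049. Of these markers 10 were above the limit for testing, with Lcp1 at 1323 on average, and 6 were below it, including the defining marker Ptprc, the gene of CD45, at no more than 21.1 in any library. The 6 lymphatic markers summed to 2737 to 5724 and 1806 to 3859, with a positive estimate in all 6 and a median log2 fold change of 0.87. Estimates were positive in 10 of 11 endothelial markers (median 0.13), 9 of 12 fibroblast markers (median 0.23), 2 of 13 mural markers (median -0.18), 0 of 10 melanoma markers (median -0.078) and 7 of the 10 tested leukocyte markers (median 0.11). No gene of the endothelial, fibroblast, mural, melanoma, leukocyte and lymphatic lists passed the threshold described next. Library 5L stood apart from the other 7 libraries, with the highest sum of melanoma markers and the lowest sums of fibroblast, mural and leukocyte markers. In the sums of endothelial and lymphatic markers 5L was lowest as well, at 41669 and 1806, with 7N close to it at 43171 and 1906. As a share of all reads on genes 7N was the lowest in both, with 0.526% endothelial and 0.0232% lymphatic markers, against 0.574% and 0.0249% in 5L. The part of these other cells in the results was not tested.

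Of the 60 members 46 had a larger group mean above 10 normalized reads and were tested with limma on log2(value + 1). A gene passed the threshold where its group means differed by a factor of 1.5 or more and its unadjusted p did not exceed 0.05. One member passed as higher under agonistic CD40 mAb (1 of 46), and 0 of 46 passed as lower. Over all 12969 genes tested 1.28% passed as higher and 0.239% as lower. No member had groups that did not overlap, against 1.57% of all genes tested. After Benjamini-Hochberg adjustment in limma the lowest p of any member was 0.9997. An unadjusted p of at most 0.05 was reached by 1 member and by 261 of all genes tested, and in edgeR and DESeq2 on the recovered reads no member passed the threshold in either direction. The single member that passed was Col7a1, and it did not pass when any one of the libraries 5N, 6L, 10N, 5L or 8N was left out.

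The direction of the estimates was mixed. Of the 21 basement-membrane members tested, 14 had a positive and 7 a negative log2 fold change, with a median of 0.094. Of the 10 fibrillar members tested, 8 were positive and 2 negative, with a median of 0.11. The beaded filament and network collagens had 3 positive and 6 negative estimates and a median of -0.046. Over all 46 members the median was 0.098, with 30 positive, and over all genes tested the median was 0.0046, with 6653 of 12969 positive. The medians of endothelial and fibroblast markers given above were positive as well, and their part in the class medians was not tested. The plot of fold changes shows that nearly all intervals of single genes include 0. The signs depended on single libraries. The fibrillar median was -0.16 without 5L and -0.043 without 10N, the basement-membrane median was -0.0019 without 6L, and with library quality weights in limma the medians were -0.15 and -0.13.

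**Figure D1:**
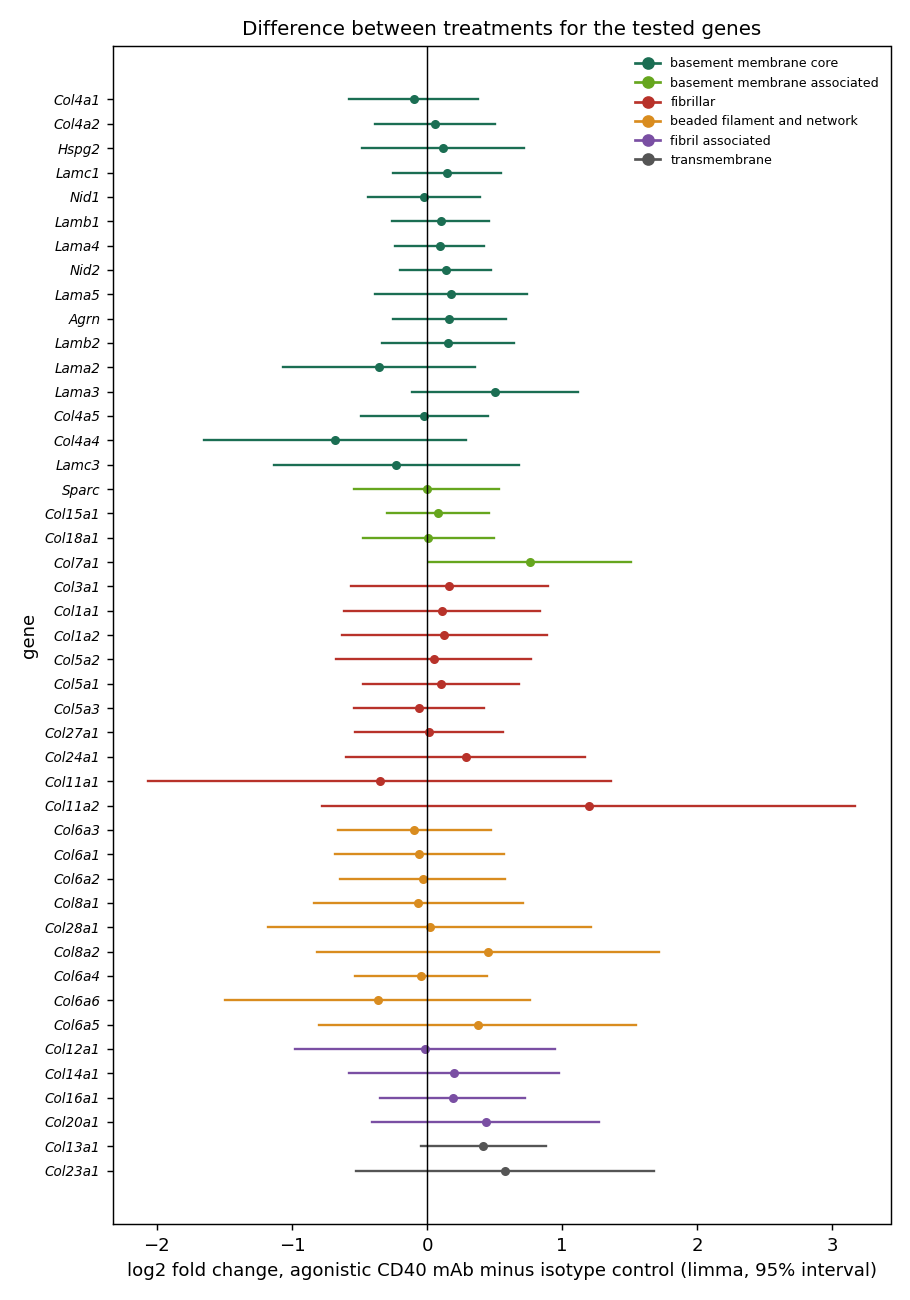
The log2 fold change of each tested collagen, laminin or linking gene reported here, agonistic CD40 mAb minus isotype control, with its 95% interval from limma on log2(value + 1), n = 4 libraries a group. The interval of Col7a1, with an estimate of 0.76, is the one drawn that does not include 0, and the intervals of the low genes Col11a1 and Col11a2 are the widest.

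The members took a large share of the reads. All 60 together held 4.37% (5L) to 7.02% (8N) of the normalized reads of a library. The 11 fibrillar genes held 1.36% (5L) to 3.51% (10N), and the 21 core basement-membrane genes 1.66% (7N) to 2.57% (6L). Col3a1 drew the most reads of all genes in the mean of the 8 libraries, Col4a1 was 2nd and Sparc 3rd, while Col1a1, Col1a2 and Col4a2 were at ranks 5, 6 and 7. Such ranks depend on transcript length, and levels are compared between genes per kb of the longest coding transcript only.

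Per kb, Sparc was at 24240 ± 4602 normalized reads (mean ± SD, n = 8 libraries), Col3a1 at 14547 ± 4097 and Col4a1 at 8747 ± 1520. Col1a2 at 8674 ± 2760 and Col1a1 at 8157 ± 2782 were at the level of Col4a1, with differences well inside the SD. Col4a2 at 5064 ± 899 was below Col4a1 by more than the spread of both. Its mean was also below those of Col1a2 and Col1a1, but the SD ranges overlapped. A middle group held Nid1 at 2132 ± 352, Col6a1 at 1779 ± 470, Lamc1 at 1775 ± 287, Col15a1 at 1705 ± 273, Lamb1 at 1593 ± 234 and Lama4 at 1406 ± 181. Neighbors in this middle group did not differ beyond their spread. Lamb2 at 252 ± 63.8, Agrn at 213 ± 46.3 and Lama5 at 141 ± 39.2 were the lowest of the vascular basement-membrane genes. For scale, the endothelial markers Pecam1 and Cdh5 were at 2882 ± 533 and 2884 ± 399 per kb, the fibroblast markers Dcn and Pdgfra at 1784 ± 869 and 192 ± 81.4, and the mural marker Rgs5 at 2571 ± 984.

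**Figure D2:**
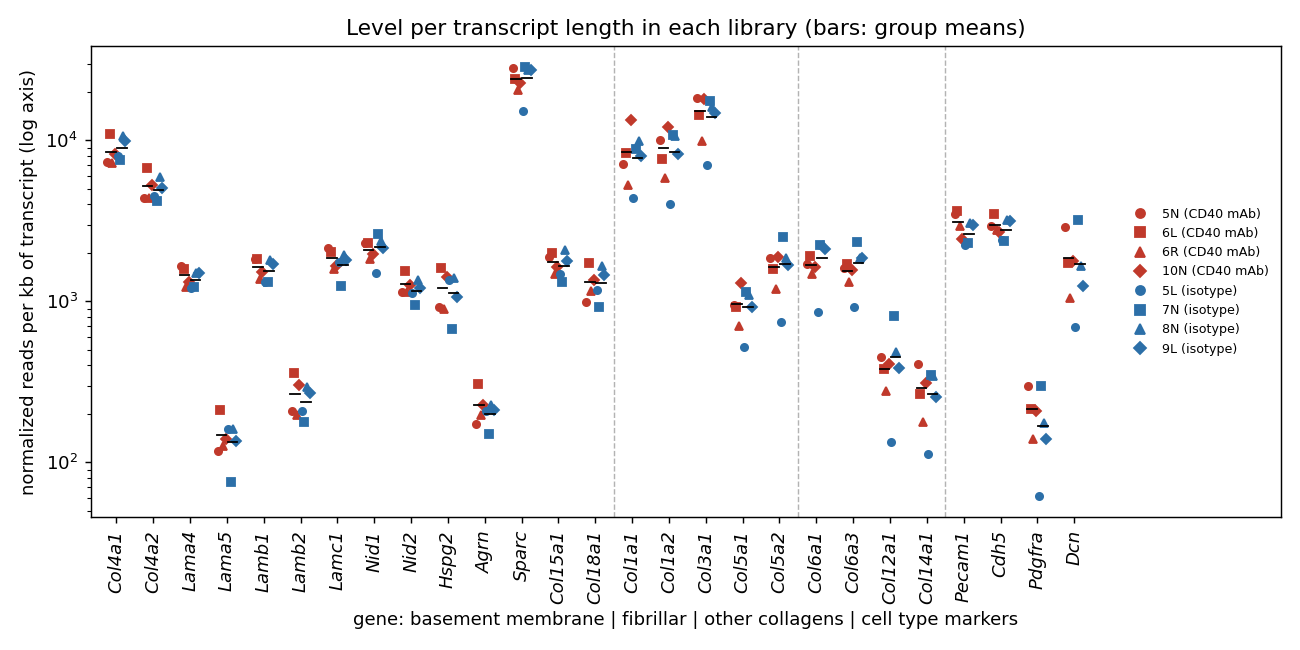
Normalized reads per kb of transcript on a log axis for the main members and 4 marker genes. Each symbol is 1 library, red for agonistic CD40 mAb and blue for isotype control, and black bars are group means. Library 5L is the lowest in the fibrillar genes, and the groups overlap for each gene drawn.

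Col4a1 and Col4a2 encode the chains of the main type IV collagen of vessels and lie head to head on chromosome 8. In mm10 with the GENCODE M21 annotation Col4a1 is at chr8:11198423-11312826, minus strand, and Col4a2 at chr8:11312805-11449287, plus strand, so that their start sites are 21 bases apart. The promoter windows of RefSeq (GRCm38.p6, 250 bases before to 50 after the start site) are shown because the pair shares this stretch and its transcripts were compared within each library. The windows share 78 bases, and their GC content is 74.0% and 73.7%. Capitals mark the letters CCAAT, the box bound by the factor NF-Y, and GGGCGG, the box bound by Sp1, on either strand, so that they also read as ATTGG and CCGCCC.
Col4a1, chr8:11312777-11313076, minus strand: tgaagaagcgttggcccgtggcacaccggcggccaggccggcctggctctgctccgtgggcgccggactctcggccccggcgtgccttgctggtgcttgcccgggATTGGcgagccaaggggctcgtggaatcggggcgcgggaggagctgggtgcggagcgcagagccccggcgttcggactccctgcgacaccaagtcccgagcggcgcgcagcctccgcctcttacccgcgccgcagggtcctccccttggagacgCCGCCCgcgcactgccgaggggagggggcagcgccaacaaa
Col4a2, chr8:11312555-11312854, plus strand: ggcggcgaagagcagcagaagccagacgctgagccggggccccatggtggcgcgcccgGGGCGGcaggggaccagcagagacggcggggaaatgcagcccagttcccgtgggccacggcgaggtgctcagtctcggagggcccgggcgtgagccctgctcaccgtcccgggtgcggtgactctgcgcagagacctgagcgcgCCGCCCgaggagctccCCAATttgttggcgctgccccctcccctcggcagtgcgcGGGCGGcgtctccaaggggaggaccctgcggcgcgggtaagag
Both windows hold 1 CCAAT. RefSeq windows were found for 44 of the 60 members (49 windows), and 15 of these windows (30.6%) hold CCAAT against 37.4% of all 32851 windows. GGGCGG was in 61.2% of the members' windows and in 35.7% of all. TATAA was in 20.4% and 24.9%, the STAT-type letters TTCNNNGAA in 6.1% and 8.3%, and the letters of the interferon-stimulated response element in 0 of 49 and in 3.4% of all, each searched on both strands. Such matches describe the letters of these windows and no binding was measured.

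Col4a1 was at 48637, 72594, 48138 and 54561 normalized reads under agonistic CD40 mAb and 53165, 50008, 70593 and 65219 under isotype control. The highest values of both groups, 6L and 8N, were alike, and the groups overlapped. Its log2 fold change was -0.10 ± 0.22 (SE), with a 95% interval of -0.58 to 0.38 and an unadjusted limma p of 0.653. Col4a2 was at 28161, 43507, 28165 and 34057 normalized reads under agonistic CD40 mAb and 29203, 27062, 38313 and 32835 under isotype control, and the groups overlapped again, with 6L highest and 7N lowest. Its log2 fold change was 0.06 ± 0.20 (SE), with an interval of -0.38 to 0.50 and an unadjusted p of 0.77.

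The ratio of the chains within a library does not depend on the size factor. The ratio of Col4a1 to Col4a2 reads was 1.73, 1.67, 1.71 and 1.60 under agonistic CD40 mAb and 1.82, 1.85, 1.84 and 1.99 under isotype control. All 4 ratios under agonistic CD40 mAb were below all 4 under isotype control. The means were 1.68 ± 0.055 and 1.87 ± 0.076 (SD, n = 4), a difference of -0.16 on the log2 scale. The two-sided exact permutation p was 0.0286, the smallest that 4 against 4 libraries can give, and after adjustment over the 3 ratios examined the permutation p was 0.0857. The difference therefore did not reach an adjusted permutation p of 0.05. A lower adjusted value would have needed a low p in a further ratio as well, and the other ratios had an exact permutation p of 0.8. Depth differed between the groups as well. The deepest library of each group, 5N with 64938728 and 9L with 35583141 reads on genes, had ratios of 1.73 and 1.99, and the shallowest, 5L, 7N and 8N, had 1.82 to 1.85. The part of depth in the ratio was not tested. The first exons of the pair overlap on opposite strands and the library kit does not keep the strand, so reads in that short stretch cannot be assigned to one gene.

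**Figure D3:**
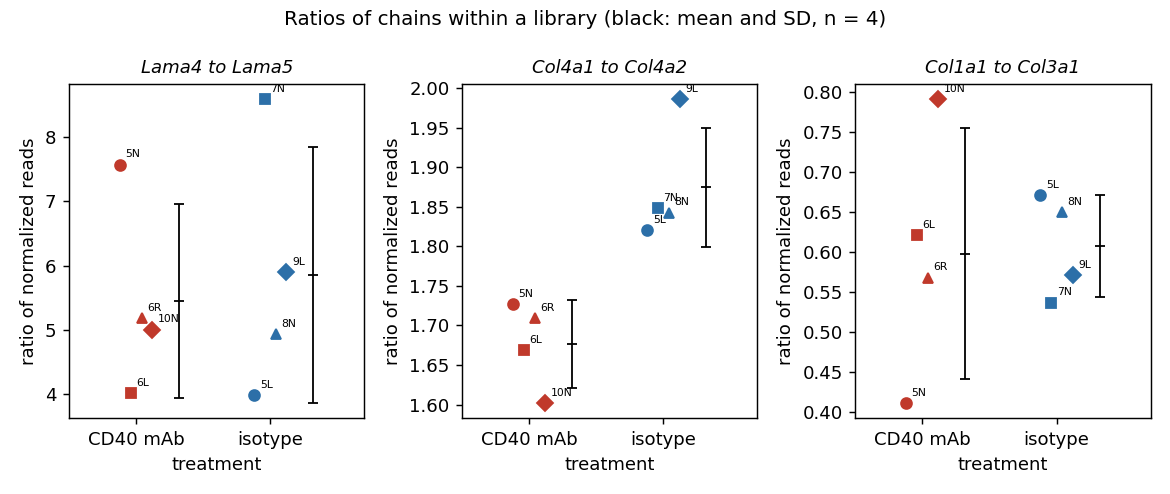
Ratios of normalized reads of paired chains within each library, with the treatment on the horizontal axis, 1 symbol per library named by mouse, and the mean and SD of 4 libraries in black; the vertical axes do not start at 0. The Col4a1 to Col4a2 ratio is 1.60 to 1.73 under agonistic CD40 mAb and 1.82 to 1.99 under isotype control, while the other ratios overlap.

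The further type IV chains, which form the networks of kidney, lung and other specialized membranes, were low. Col4a5 ranged from 103 to 185 normalized reads and Col4a4 from 10.9 to 66, with log2 fold changes of -0.019 ± 0.21 (SE) and -0.68 ± 0.44 (SE). Neither passed the threshold. Col4a3 and Col4a6 were below the limit for testing.

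Laminins are trimers of an α, a β and a γ chain. Lama4, the α4 chain typical of endothelial basement membranes, was at 10075, 9653, 7452 and 7965 normalized reads under agonistic CD40 mAb and 7290, 7437, 9049 and 9077 under isotype control. Library 5N was highest and 5L lowest, and the groups overlapped, with a log2 fold change of 0.094 ± 0.15 (SE) and an unadjusted limma p of 0.545. Lama5, the α5 chain of the laminin that appears as vessels mature, was at 1331, 2403, 1436 and 1591 normalized reads under agonistic CD40 mAb and 1828, 866, 1835 and 1540 under isotype control. The highest value was in 6L and the lowest in 7N, and the log2 fold change was 0.18 ± 0.26 (SE) with a p of 0.503. The ratio of Lama4 to Lama5 reads was 7.57, 4.02, 5.19 and 5.01 under agonistic CD40 mAb and 3.99, 8.59, 4.93 and 5.90 under isotype control, so 5N and 7N stood highest in their groups. The means were 5.45 ± 1.51 and 5.85 ± 1.98 (SD, n = 4), and the two-sided exact permutation p was 0.8.

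Lamb1, the β1 chain, was at 10585, 10666, 8020 and 8826 normalized reads under agonistic CD40 mAb and 7586, 7642, 10479 and 9913 under isotype control. Lamc1, the γ1 chain that most laminins share, was at 16458, 15546, 12075 and 12665 normalized reads under agonistic CD40 mAb and 13311, 9512, 14846 and 13834 under isotype control. Libraries 5N and 6L were the highest of the agonistic CD40 mAb group in both genes, and the groups overlapped in both. The log2 fold changes were 0.10 ± 0.16 (SE) for Lamb1 and 0.15 ± 0.18 (SE) for Lamc1, with unadjusted limma p of 0.543 and 0.43. Lamb2, the β2 chain, was at 1175, 2025, 1114 and 1707 normalized reads under agonistic CD40 mAb and 1168, 1002, 1653 and 1519 under isotype control, with 6L highest, 7N lowest and overlapping groups, and its log2 fold change was 0.16 ± 0.22 (SE). Per kb it was below Lamb1 by more than the spread of both.

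The remaining laminin chains were minor. Lama2, the α2 chain of muscle and mural basement membranes, ranged from 286 to 1009 normalized reads, with its highest value in 7N, the library with the highest sum of mural markers. Its log2 fold change was -0.36 ± 0.32 (SE), and without 5L it passed the threshold as lower, a setting in which the lower calls over all genes went from 31 to 123. Lama3, a chain of the epithelial laminin that anchors skin, ranged from 161 to 484. Its log2 fold change was 0.50 ± 0.28 (SE) with an unadjusted limma p of 0.0982, and it passed as higher without 10N. Lamc3, the γ3 chain, ranged from 13.2 to 53.1, and Lama1 and Lamb3 were below the limit for testing.

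Nidogens tie the laminin network to type IV collagen. Nid1 was at 14097, 13995, 11139 and 11929 normalized reads under agonistic CD40 mAb and 9176, 15921, 14500 and 13112 under isotype control, with a log2 fold change of -0.021 ± 0.19 (SE). Nid2 was at 5606, 7572, 5582 and 6189 normalized reads under agonistic CD40 mAb and 5477, 4620, 6662 and 5938 under isotype control, with a log2 fold change of 0.14 ± 0.15 (SE). The groups overlapped in both genes, and library 7N was the highest for Nid1 and the lowest for Nid2. Part of the Nid1 transcripts, 2.09% of their windows of 50 bases, also occurs in Gm2399.

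The heparan sulfate proteoglycans of the membrane had wider ranges over the libraries than the nidogens. Hspg2, the gene of perlecan, was at 13079, 22892, 12770 and 20099 normalized reads under agonistic CD40 mAb and 19242, 9571, 19835 and 15096 under isotype control. Library 6L was highest and 7N lowest, a 2.39-fold range, and the log2 fold change was 0.12 ± 0.27 (SE) with an unadjusted limma p of 0.669. Agrn, the gene of agrin, was at 1253, 2226, 1433 and 1647 normalized reads under agonistic CD40 mAb and 1515, 1092, 1658 and 1526 under isotype control, with the same libraries highest and lowest and a log2 fold change of 0.16 ± 0.19 (SE).

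Sparc, Col15a1, Col18a1 and Col7a1 belong to the edge of the basement membrane. Sparc, a collagen-binding protein secreted with type IV collagen, was at 64650, 55455, 47460 and 52656 normalized reads under agonistic CD40 mAb and 34885, 65396, 62784 and 62737 under isotype control. Library 5L stood far below the other 7, and the log2 fold change was -0.0011 ± 0.24 (SE). Col15a1, a chain of the zone under vessels that joins the membrane to the fibers, was at 9719, 10337, 7606 and 8430 normalized reads under agonistic CD40 mAb and 7630, 6859, 10781 and 9181 under isotype control, with overlapping groups and a log2 fold change of 0.079 ± 0.17 (SE). Col18a1, the precursor of endostatin, was at 5552, 9733, 6449 and 7644 normalized reads under agonistic CD40 mAb and 6591, 5148, 9326 and 8204 under isotype control, with a log2 fold change of 0.0092 ± 0.22 (SE). For both genes 7N was the lowest library.

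Col7a1, the chain of the anchoring fibrils under epithelia, was the member past the threshold. It was at 60.8, 49.8, 29.5 and 52.8 normalized reads under agonistic CD40 mAb and 19.6, 30.9, 20.4 and 43.3 under isotype control. Libraries 5N, 6L and 10N were above all 4 isotype control libraries, but 6R was below 7N and 9L, so the groups overlapped. The means were 48.2 ± 13.3 against 28.6 ± 11.1 (SD, n = 4), a ratio of 1.69. The log2 fold change was 0.76 ± 0.34 (SE), with an interval of 0.016 to 1.51, an unadjusted limma p of 0.0461 and a two-sided exact permutation p of 0.0857. The gene was low, at 4.15 normalized reads per kb, where Col4a1 was at 8747.

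Fibrillar chains were abundant and, over all 8 libraries, had a wider median range than core basement-membrane chains. The lowest value was in 5L for 8 of the 10 tested fibrillar genes, so this difference in range rests on that library. Col1a1 and Col1a2 encode the chains of type I collagen, and Col3a1 the chain of type III collagen, which is common around vessels. Col3a1 was at 102260, 79926, 55177 and 100144 normalized reads under agonistic CD40 mAb and 38964, 98218, 90232 and 82614 under isotype control. Its means were 84377 ± 21915 against 77507 ± 26473 (SD, n = 4), and the log2 fold change was 0.17 ± 0.33 (SE), with an interval of -0.57 to 0.90 and an unadjusted limma p of 0.627. Libraries 5L and 6R were the lowest of their groups, and the other 6 libraries lay between 79926 and 102260. Of the Col3a1 transcripts 1.67% of the windows also occur in Gm47302, which overlaps the gene on the same strand.

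Col1a1 was at 42041, 49650, 31330 and 79249 normalized reads under agonistic CD40 mAb and 26132, 52706, 58636 and 47206 under isotype control. Col1a2 was at 54055, 40820, 31152 and 64740 normalized reads under agonistic CD40 mAb and 21530, 57673, 57143 and 43984 under isotype control. Both genes were highest in 10N and lowest in 5L, with 3.03-fold and 3.01-fold ranges, and the groups overlapped. The log2 fold changes were 0.11 ± 0.33 (SE) and 0.13 ± 0.34 (SE), with unadjusted limma p of 0.742 and 0.716. The ratio of Col1a1 to Col3a1 reads was 0.411, 0.621, 0.568 and 0.791 under agonistic CD40 mAb and 0.671, 0.537, 0.650 and 0.571 under isotype control. The 4 isotype control ratios fell inside the range of the agonistic CD40 mAb ratios, with means of 0.598 ± 0.157 and 0.607 ± 0.064 (SD, n = 4) and a two-sided exact permutation p of 0.8.

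Type V collagen is built into type I fibrils and limits their width. Col5a1 was at 7947, 7800, 5929 and 10945 normalized reads under agonistic CD40 mAb and 4355, 9673, 9172 and 7784 under isotype control, and Col5a2 was at 12394, 10518, 7932 and 12576 normalized reads under agonistic CD40 mAb and 4905, 16711, 12361 and 11194 under isotype control. Library 5L was the lowest for both and 7N the highest for Col5a2. The log2 fold changes were 0.10 ± 0.26 (SE) and 0.049 ± 0.33 (SE). Col5a3 ranged from 2737 to 5115 normalized reads, with a log2 fold change of -0.061 ± 0.22 (SE). The other fibrillar chains were low. Col27a1 ranged from 113 to 217 and Col24a1 from 19.6 to 78.9. The cartilage chains Col11a1 and Col11a2 reached 121 and 34.8 and had log2 fold changes of -0.35 ± 0.78 (SE) and 1.20 ± 0.89 (SE), and Col11a1 was the other member that passed as lower without 5L. Col2a1, the main cartilage chain, was below the limit for testing.

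Among the beaded filament and network collagens, type VI chains form fine filaments around cells. Col6a3 was at 16194, 17201, 13427 and 15810 normalized reads under agonistic CD40 mAb and 9284, 23510, 18688 and 18759 under isotype control, with a log2 fold change of -0.093 ± 0.26 (SE). Col6a1 was at 6991, 7880, 6067 and 6709 normalized reads under agonistic CD40 mAb and 3526, 9250, 9198 and 8729 under isotype control, with a log2 fold change of -0.056 ± 0.28 (SE). Library 5L was below all others in both genes, and the 4 agonistic CD40 mAb libraries lay between it and the other isotype control libraries in Col6a1 and Col6a3. Col6a2, the third main chain, ranged from 2896 to 7178, and Col8a1, a chain made by vascular cells, from 968 to 4042, with log2 fold changes of -0.033 ± 0.28 (SE) and -0.064 ± 0.35 (SE). The other 5 tested chains of this class, Col28a1, Col8a2, Col6a4, Col6a5 and Col6a6, stayed at or under 192.7 in every library, and Col6a5 and Col6a6 share 3.49% and 3.71% of their windows with each other.

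Fibril-associated chains sit on the surface of fibers. Col12a1 was at 5168, 4362, 3186 and 4723 normalized reads under agonistic CD40 mAb and 1537, 9302, 5610 and 4416 under isotype control, a 6.05-fold range from 5L to 7N, with a log2 fold change of -0.016 ± 0.44 (SE). Col14a1 was at 2627, 1710, 1152 and 2022 normalized reads under agonistic CD40 mAb and 731, 2267, 2212 and 1638 under isotype control, with a log2 fold change of 0.20 ± 0.35 (SE). In both genes the 4 agonistic CD40 mAb libraries lay above 5L, and 5N was the highest of all for Col14a1. Col16a1 ranged from 635 to 1498 and Col20a1 from 6.81 to 18. Of the transmembrane collagens, Col13a1 was at 428, 514, 395 and 650 normalized reads under agonistic CD40 mAb and 249, 409, 445 and 390 under isotype control. Libraries 6L and 10N were above all 4 isotype control libraries and the groups overlapped, with a log2 fold change of 0.42 ± 0.21 (SE), an unadjusted limma p of 0.0728 and an exact permutation p of 0.171. Col23a1 was at 26.4, 100, 49.3 and 58.6 normalized reads under agonistic CD40 mAb and 22, 78.5, 46.3 and 18.4 under isotype control, with overlapping groups and a log2 fold change of 0.58 ± 0.50 (SE).

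The 14 members below the limit were Col4a3, Col4a6, Lama1, Lamb3, Col2a1, Col9a1, Col9a2, Col9a3, Col10a1, Col17a1, Col19a1, Col22a1, Col25a1 and Col26a1. They include the chains of cartilage, of hemidesmosomes and of nerve tissue. They reached at most 19.7 normalized reads in any library. The largest number of reads behind any of them was 85 in the 4 agonistic CD40 mAb libraries together (Col10a1), and Col26a1 had 0 and 1 reads in the groups.

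The members moved between libraries in 2 patterns, as the plot of deviations shows. Library 5L was the lowest in 27 of the 46 tested members, among them 8 of 10 fibrillar and 7 of 9 beaded filament and network genes, but in 6 of 17 core basement-membrane genes. Library 7N was the lowest in 7 of the 17 core basement-membrane genes and the highest in 5 of the 9 beaded filament and network genes. Library 6L was the highest in 9 of the 17 core basement-membrane genes. The median ratio of the highest to the lowest library was 2.02 in core basement-membrane genes, 3.01 in fibrillar genes and 3.50 in beaded filament and network genes. The larger medians of the fibrillar and of the beaded filament and network genes rest on the low values of 5L, so they show no difference between the classes apart from that library.

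**Figure D4:**
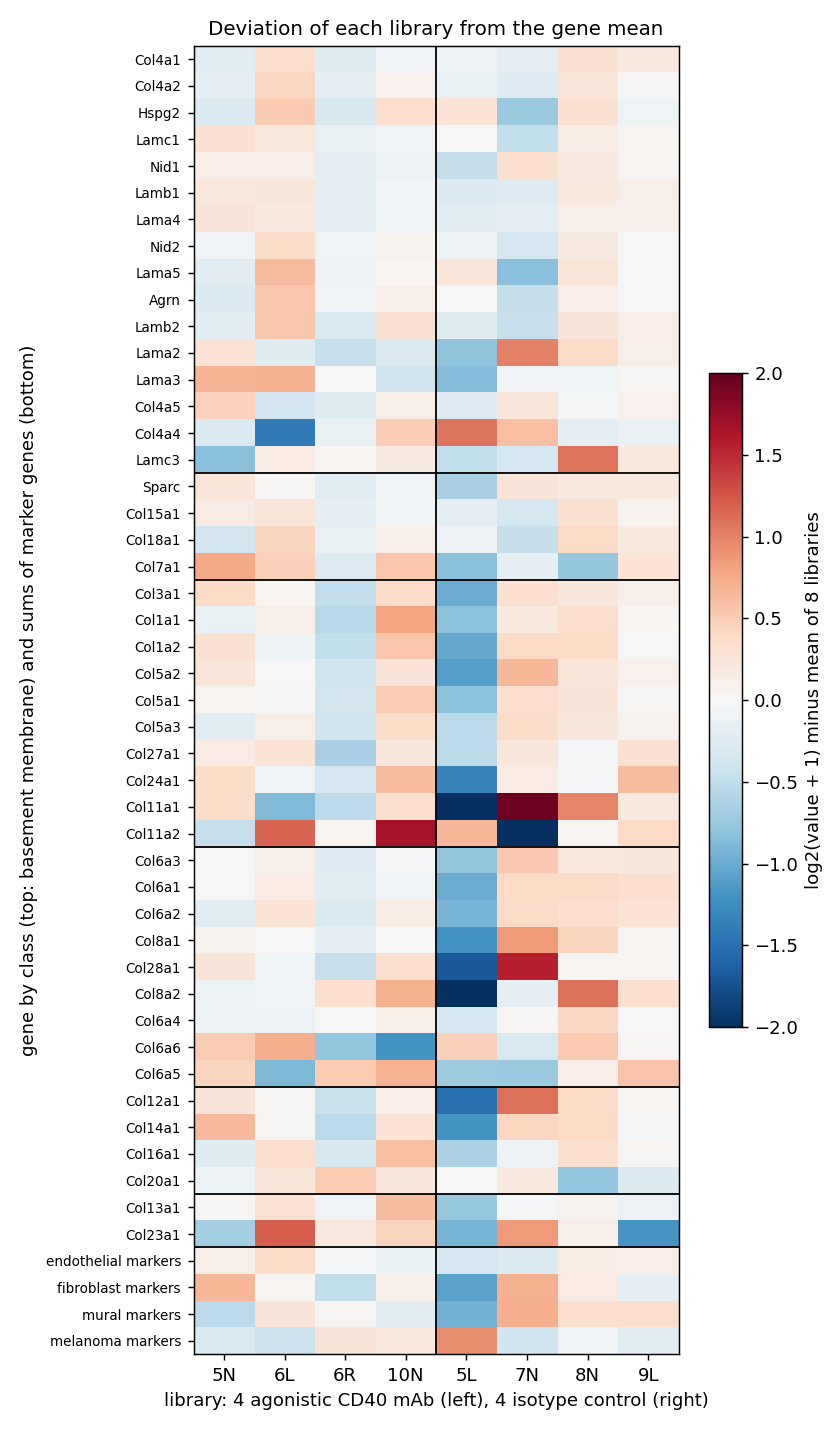
Deviation of each library from the mean of the 8 libraries, as log2(value + 1), for the tested genes reported here, in blocks by class (basement membrane core, associated, fibrillar, beaded filament and network, fibril associated, transmembrane) and, in the bottom 4 rows, for the sums of marker genes; red is higher and blue lower. The column of 5L is mostly blue in the fibrillar, beaded filament and fibril-associated blocks, with Col11a2 and Col6a6 as exceptions, and in the fibroblast and mural sums, and red in the melanoma sum.

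Relations between these levels were examined on log2(value + 1) over the 8 libraries, in 12 relations chosen after the values had been seen. All p-values given for them come from permutation tests, and adjusted values are Benjamini-Hochberg over the 12. Col4a1 and Col4a2 had a Pearson's r of 0.92 (permutation p = 0.00154, adjusted 0.00461) and a Spearman's rho of 0.88 (permutation p = 0.00724, adjusted 0.0321), and r was 0.76 without 6L and 8N, the libraries farthest from the median. Col3a1 and Col1a2 had r = 0.97 (permutation p = 0.000595, adjusted 0.00446) and rho = 0.86 (permutation p = 0.0107, adjusted 0.0321), with r = 0.87 without 5L and 6R. Between the classes Col4a1 and Col3a1 had r = 0.17 (permutation p = 0.717, adjusted 0.782) and rho = -0.095 (permutation p = 0.840, adjusted 0.962), with r = 0.061 without 6L and 8N. High correlations were also found for Col1a1 with Col1a2 (r = 0.90, rho = 0.88, permutation p = 0.00114 and 0.00724, adjusted 0.00456 and 0.0321, r = 0.79 without 5L and 10N) and for Lamb1 with Lamc1 (r = 0.82, rho = 0.83, permutation p = 0.00489 and 0.0154, adjusted 0.0117 and 0.0369, r = 0.94 without 5L and 7N).

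The sum of fibroblast markers and Col3a1 had r = 0.93 (permutation p = 0.000744, adjusted 0.00446) and rho = 0.86 (permutation p = 0.0107, adjusted 0.0321), and r stayed at 0.86 without 5L and 7N and at 0.93 with the group means removed. The same sum and Col4a1 had r = -0.030 (permutation p = 0.944, adjusted 0.944) and rho = -0.024 (permutation p = 0.977, adjusted 0.977), with r = -0.040 without 5L and 7N. The sum of endothelial markers and Col4a1 had r = 0.69 (permutation p = 0.0676, adjusted 0.116) and rho = 0.62 (permutation p = 0.115, adjusted 0.230), with r = 0.56 without 5L and 6L and 0.85 with the group means removed. Endothelial markers and Col3a1 had r = 0.37 and rho = 0.071 (permutation p = 0.374 and 0.882, adjusted 0.449 and 0.962), with r = -0.11 without 5L and 6L.

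Mural markers had r = 0.53 with Col3a1 (rho = 0.12, permutation p = 0.174 and 0.793, adjusted 0.261 and 0.962, r = 0.25 without 5L and 5N) and r = 0.37 with Col4a1 (rho = 0.31, permutation p = 0.358 and 0.462, adjusted 0.449 and 0.693, r = 0.10 without 5L and 5N). Melanoma markers and Col3a1 had r = -0.81 (permutation p = 0.0248, adjusted 0.0496) and rho = -0.43 (permutation p = 0.299, adjusted 0.513), but r was 0.32 without 5L and 6R, so that relation rests on those libraries.

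**Figure D5:**
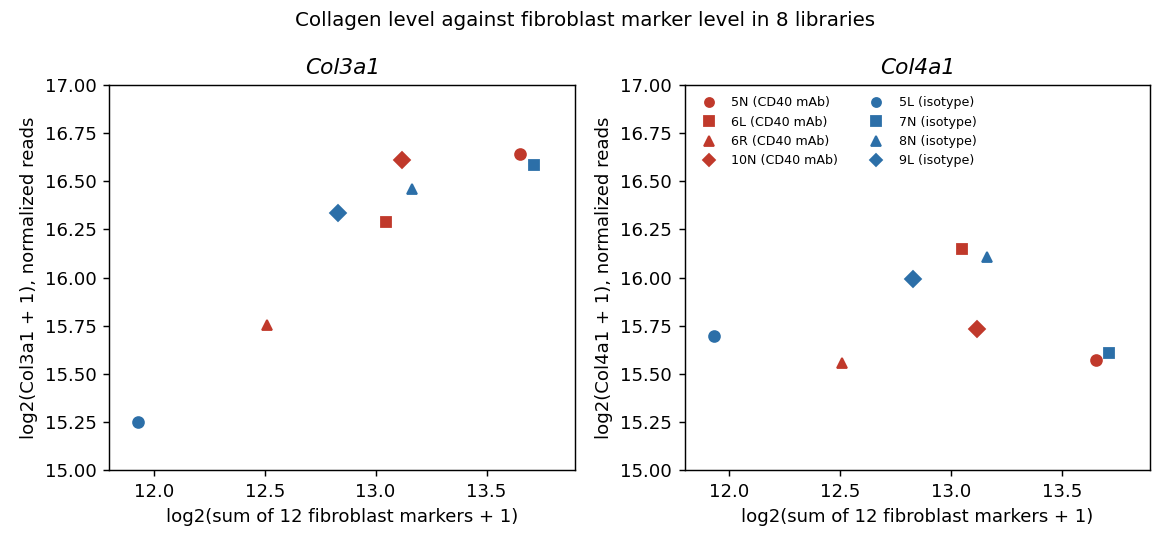
Col3a1 (left) and Col4a1 (right) against the sum of 12 fibroblast marker genes, both as log2(normalized reads + 1), 1 symbol per library with red for agonistic CD40 mAb and blue for isotype control. Col3a1 rises with the marker sum (r = 0.93, n = 8) and Col4a1 does not follow it (r = -0.030).

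Many of the chains carry a site for the miR-29 family, microRNAs known to bind collagen messages. The mature sequences of RefSeq (GRCm38.p6) are shown because their seed, bases 2 to 8 in capitals, is the same in all of them and defines the site that was searched.
mmu-miR-29a-3p, chr6:31062673-31062694, minus strand: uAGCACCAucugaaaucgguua
mmu-miR-29b-3p, chr6:31063025-31063047, minus strand, and chr1:195037091-195037113, plus strand: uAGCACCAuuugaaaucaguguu
mmu-miR-29c-3p, chr1:195037600-195037621, plus strand: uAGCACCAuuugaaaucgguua
The matching letters TGGTGCT were sought on the coding strand of the 3′ UTR of the longest coding transcript of each gene (mm10, GENCODE M21). They were in 26 of 58 members (44.8%), in 9 of 11 fibrillar genes (81.8%) and in 8 of 21 core basement-membrane genes (38.1%), among them each of the type IV chains. Of all 17274 genes 14.0% held them, and of the 4392 genes with a 3′ UTR within 1.5 times the median length of the members 10.6%. The sites of the chains with a match and a level per kb at or above that of Col5a2 are printed from the mm10 genome with the match in capitals.
Col4a1, 3′ UTR, chr8:11199760-11199782, minus strand: ccaccgtcacaacaTGGTGCTac
Col4a2, 3′ UTR, chr8:11448345-11448367, plus strand: tgggaaggccacgtTGGTGCTta
Col4a2, 3′ UTR, chr8:11448516-11448538, plus strand: caccacacccagctTGGTGCTta
Col1a1, 3′ UTR, chr11:94952524-94952546, plus strand: tgggaaggaatttcTGGTGCTat
Col3a1, 3′ UTR, chr1:45348968-45348990, plus strand: tcaaaatgtctcaaTGGTGCTat
Col15a1, 3′ UTR, chr4:47312486-47312508, plus strand: tccaatccacatatTGGTGCTag
Col5a2, 3′ UTR, chr1:45374964-45374986, minus strand: ttttcttttaatgaTGGTGCTaa
Lamc1, 3′ UTR, chr1:153220067-153220089, minus strand: attatctgacacacTGGTGCTat
Sparc, Nid1, Hspg2 and Col1a2 hold no such letters in this 3′ UTR. The microRNAs themselves were not measured, and a match is a description of the sequence.

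Genes that make, bind and cut these chains gave a similar picture. None of the 32 tested genes of collagen processing passed the threshold, with 16 positive and 16 negative estimates. Serpinh1, the collagen chaperone HSP47, was at 12634, 12749, 11339 and 15167 normalized reads under agonistic CD40 mAb and 11527, 10121, 15160 and 17204 under isotype control, and P4hb, a subunit of prolyl 4-hydroxylase, was at 11125, 9765, 10441 and 11574 normalized reads under agonistic CD40 mAb and 9895, 14039, 11236 and 11427 under isotype control. The groups overlapped in both, with log2 fold changes of -0.034 ± 0.19 (SE) and -0.11 ± 0.14 (SE). None of the 18 tested matrix receptors passed, with 8 positive and 10 negative. Itgb1, the integrin β1 chain, was at 14898, 13120, 13848 and 12877 normalized reads under agonistic CD40 mAb and 11877, 18050, 15103 and 13992 under isotype control, and Itga6, a laminin-binding integrin chain, was at 4916, 5333, 3842 and 3586 normalized reads under agonistic CD40 mAb and 3744, 3588, 4337 and 4129 under isotype control. Their log2 fold changes were -0.095 ± 0.16 (SE) and 0.15 ± 0.15 (SE), with overlapping groups.

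None of the 18 tested matrix proteases and inhibitors passed either, with 12 positive and 6 negative. Mmp14, a membrane-bound collagenase, was at 5347, 5647, 4740 and 5926 normalized reads under agonistic CD40 mAb and 4201, 6630, 6074 and 5694 under isotype control, and Adamts1, a protease of proteoglycans, was at 5209, 7185, 5030 and 4708 normalized reads under agonistic CD40 mAb and 3123, 7052, 4864 and 4753 under isotype control. Both had overlapping groups, with log2 fold changes of -0.046 ± 0.16 (SE) and 0.20 ± 0.23 (SE).

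Of 32 tested genes of other vascular matrix 2 passed as higher under agonistic CD40 mAb and 0 as lower. Over all 12969 genes tested 1.28% passed as higher and 0.239% as lower, and 1.57% had groups that did not overlap. Tgm2, a transglutaminase that cross-links matrix proteins, was at 1524, 2245, 1818 and 1783 normalized reads under agonistic CD40 mAb and 836, 1092, 1360 and 1296 under isotype control. All 4 agonistic CD40 mAb values were above all 4 isotype control values, and the means were 1842 ± 299 against 1146 ± 236 (SD, n = 4). The log2 fold change was 0.70 ± 0.17 (SE), with an interval of 0.31 to 1.08 and an unadjusted limma p of 0.00209, and the adjusted limma p was 0.485. It did not pass the threshold without 6L (log2 fold change 0.60) or without 5L (0.55). Ltbp1, which holds latent TGFβ in the matrix, was at 245, 233, 157 and 132 normalized reads under agonistic CD40 mAb and 68.4, 121, 146 and 149 under isotype control, with overlapping groups, a log2 fold change of 0.68 ± 0.29 (SE) and an unadjusted limma p of 0.0375, and it did not pass without 5N, 6L, 5L or 7N, over which its log2 fold change ranged from 0.43 to 0.70. With library quality weights in limma the log2 fold change of Ltbp1 was 0.31 with an unadjusted p of 0.155, and with the trend off the unadjusted limma p was 0.0514, so it passed in neither. The genes with the most reads of that list were Fn1, the gene of fibronectin, at 29597, 29057, 24052 and 35049 normalized reads under agonistic CD40 mAb and 18135, 39207, 34010 and 32094 under isotype control, and Bgn, the gene of the proteoglycan biglycan, at 20872, 20157, 17120 and 19350 normalized reads under agonistic CD40 mAb and 7334, 31596, 23299 and 21849 under isotype control. Library 5L was the lowest and 7N the highest for both, and their log2 fold changes were -0.025 ± 0.25 (SE) and 0.06 ± 0.37 (SE).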

How the data were processed

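RNA of CD45- CD31+ cells from 8 tumors was sequenced, 1 library per tumor. The authors deposited 1 signal value per gene and library, gene counts divided by DESeq2 size factors. Per the methods the reads were aligned to mm10 with TopHat2, where the processing notes name Bowtie2 2.2.1, and assigned to genes in Partek 6.6. Libraries came from a kit that does not keep the strand. Flooring, trimming of low genes and a correction for harvest day are described, but zeros and low values are present, and 99.9% of values lie within 0.1 read of a whole number of reads. The labels give the day after implantation and no harvest date per tumor, and the part of harvest day in the differences was not tested. Depth was recovered from these steps. Reads carry no molecular identifiers and are not independent molecules.

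limma 3.58.1 (R 4.3.3) was run on log2(value + 1), trend on and treatment the only term, over 12969 genes whose mean exceeded 10 in at least 1 group. The added 1 tends to pull the fold changes of low genes toward 0. They can also differ from the ratio of group means, as for Col28a1, with a log2 fold change of 0.019 and a ratio of 0.77. Means, SD and ratios refer to normalized reads. The p-values measure the spread between tumors. The test was tried on simulated data. Ratios of chains were compared by two-sided exact permutation tests. The alternatives were pseudocounts of 0.1 and 10, other limits on low genes, size factors computed anew, quantile normalization, limma with library quality weights or with the trend off, the fold change from limma, edgeR 4.0.16 and DESeq2 1.42.0 on recovered reads, and leaving out each library.

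Named are the vascular basement-membrane and fibrillar chains, each member whose unadjusted p did not exceed 0.05, the 2 genes with the largest mean of every other class or list and each gene of these lists past the threshold. The members and lists were chosen with earlier results of these data known. Lymphatic and other markers were used for description. Of the members, 1 is counted but not reported by name here.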

Additional observations from a re-analysis of the deposited data

Results flagged for a closer look

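Values that stand apart within a group of 4 libraries were sought with Dixon's test at its 95% critical value in 58 groups, and chance alone passes about 1 in 20 of such groups. Sparc was 34885 normalized reads in isotype control library 5L, where the gap to the next library is 0.913 of the group's range. Col6a1 was 3526 in the same library, with a gap of 0.909 of the range. In the ratio of Col4a1 to Col4a2 the isotype control library 9L stood apart at 1.99, with a gap of 0.835 of the range, and the ratios of 5L, 7N and 8N lay within 1.82 to 1.85. Library 5L also had the fewest reads on genes, 2971689, the lowest sum of fibroblast markers, 3903, and the highest sum of melanoma markers, 122820, and the part of these in its matrix values was not tested.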

How the results depend on the processing

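The call of Col7a1 did not hold in every setting. The number of members past the threshold as higher was 0 with all genes, with a larger group mean above 50, after quantile normalization, and in edgeR and DESeq2 on the recovered reads, and with 1 library left out it ranged from 0 to 1, where the gene called without 10N was Lama3. With a larger group mean above 50 Col7a1 was not tested. The number past the threshold as lower was 0 throughout, and 0 to 2 with 1 library left out, with both calls, Col11a1 and Lama2, made without 5L. Without 5L the lower calls over all genes also went from 31 of 12969 to 123 of 13017.

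The signs of small estimates changed most with library quality weights in limma. There the basement-membrane median was -0.13, and the log2 fold changes were Col4a2 -0.13, Lama4 -0.079, Lama5 -0.054, Lamb1 -0.13, Lamb2 -0.11, Lamc1 -0.065, Nid2 -0.036, Hspg2 -0.11, Col15a1 -0.19, Col18a1 -0.25, Col1a1 -0.17, Col1a2 -0.20, Col3a1 -0.13, Col5a1 -0.12, Col5a2 -0.19, Col14a1 -0.22, Itga6 -0.0099 and Bgn -0.22. After quantile normalization they were Nid1 0.062, Col12a1 0.0090, Itgb1 0.018 and Fn1 0.14. In edgeR they were Col18a1 -0.0047, Col5a2 -0.049 and Bgn -0.11, and in DESeq2 Col18a1 -0.0031, Col5a2 -0.050 and Bgn -0.11. With 1 library left out, the lowest and highest log2 fold changes were Col5a2 -0.31 to 0.28, Col4a2 -0.074 to 0.15, Lama5 -0.072 to 0.29, Lamb2 -0.0019 to 0.29, Hspg2 -0.11 to 0.25, Col18a1 -0.15 to 0.14, Nid1 -0.18 to 0.080, Sparc -0.22 to 0.084, Col6a1 -0.40 to 0.068, Col12a1 -0.51 to 0.35, Serpinh1 -0.16 to 0.093, Mmp14 -0.18 to 0.038, Fn1 -0.26 to 0.11, Col1a1 -0.14 to 0.31, Col1a2 -0.19 to 0.31, Col5a1 -0.15 to 0.25, Col3a1 -0.14 to 0.36, Col14a1 -0.17 to 0.41, Adamts1 -0.0017 to 0.39, Bgn -0.39 to 0.32, Col15a1 -0.024 to 0.19, Col6a3 -0.37 to 0.073 and Itgb1 -0.19 to 0.0078. The cause of these changes was not tested. None of these genes passed the threshold in the main analysis. Ltbp1, which did, was at 0.31 with library quality weights and did not pass there or with the trend of limma off.

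The log2 difference of the Col4a1 to Col4a2 ratio ranged from -0.17 to -0.13 with 1 library left out, with an exact permutation p of 0.0571 in each case, the smallest that 3 against 4 libraries can give. That of Lama4 to Lama5 ranged from -0.25 to 0.12 and that of Col1a1 to Col3a1 from -0.20 to 0.11. Depth limits the low members, since 1 read is worth up to 2.44 normalized reads. No paired analysis was possible because the labels give no replicate numbers, and the mouse names share a number across the groups only in 5N and 5L, with nothing in the labels that says what it marks. Within the agonistic CD40 mAb group 6L and 6R also share a number of unstated meaning, and they were treated as separate tumors.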
